A study of Mus musculus with 2 samples.

Results

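The Schlafen genes of the mouse were followed in single leukemia cells from 2 libraries. The 7 members Slfn1, Slfn2, Slfn3, Slfn4, Slfn5, Slfn8 and Slfn9 were taken by gene symbol from the 31053 genes listed in the matrices, and all 7 were found. The cells were mouse fetal liver cells made leukemic with a retrovirus that carries AML1-ETO9a (AE9a), a truncated leukemia fusion protein, together with GFP, and they were grown in transplanted wild-type C57BL/6 mice. Their Usp18 gene was floxed, and they carried UBCER-Cre, a Cre driven by the ubiquitin C promoter in all tissues and active after tamoxifen. USP18 removes ISG15 from proteins and limits signaling from the type I interferon receptor. Sick recipients received corn oil alone or with tamoxifen, and GFP+ Lin- c-Kit+ spleen cells were sorted 3 days after the first injection, with 3 mice pooled and 8000 cells targeted for each library.

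Schlafen proteins were first described as regulators of thymocyte and T cell growth. All share an N-terminal domain that binds and in some members cuts RNA, tRNA included. The short forms, Slfn1 and Slfn2, hold little else, the intermediate forms, Slfn3 and Slfn4, have a longer middle part, and the long forms, Slfn5, Slfn8 and Slfn9, end in a helicase-like domain. Many of the genes are inducible by type I interferon.

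Both libraries share the AE9a retrovirus, the floxed locus and the Cre, so by the labels the groups differ in the injection and in the deletion that it triggers. The labels disagree on the genotype. Title, genotype and treatment labels give Usp18f/f for oil and Usp18delta/delta for tamoxifen, whereas the protocol text describes Usp18+/f cells and loss of a single allele. The Usp18 transcript was not lower in tamoxifen, with 371 UMIs (5.62 CPM) in the library labelled oil and 933 UMIs (15.4 CPM) in the library labelled tamoxifen. A UMI is a captured transcript molecule, and CPM is the UMI count scaled to a common library total. Reads of 3′ ends do not show whether exons upstream were deleted. Every direction below is therefore one between the libraries as labelled. There is 1 library per group, so no test was run, and each interval in brackets is a 95% interval that covers counting error only.

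After filtering, 6838 cells with 66045700 UMIs remained in oil and 6472 cells with 60661486 UMIs in tamoxifen, and 14 cell barcodes occurred in both. Kit, the marker of the sort, had 171 and 232 CPM.

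The 7 members lie side by side on chromosome 11 and span 263.8 kb (GRCm38, GENCODE M21). The order is Slfn5, Slfn9, Slfn8, Slfn2, Slfn1, Slfn4 and Slfn3, with Slfn8 and Slfn9 on the minus strand and the others on the plus strand. Promoter windows of 250 bases before and 50 after the start were searched on both strands for GAAANNGAAA, a core of the interferon-stimulated response element, the site through which type I interferon acts on its target genes. All 7 members had a window. The pattern occurred in those of the long forms Slfn5, Slfn8 and Slfn9 and in none of Slfn1, Slfn2, Slfn3 and Slfn4. It was present in 3.44% of 32851 windows of the genome. Counted by gene, it was in a window of 3.99% of genes and of 3.68% of genes with at least 100 UMIs. Of the 47 listed interferon-stimulated genes that had a window, 23 had it. The pattern TTCNNNGAA, a core of the gamma-activated site, was in no member's window and in 8.30% of all windows. Stretches of 60 bases around the matches are shown, with those bases before the Slfn2 start that have no match, because Slfn5 and Slfn2 both followed Isg15 in single cells and the pattern is in the window of Slfn5 but not of Slfn2. Sequences are from RefSeq on GRCm38.p6, 5′ to 3′ on the strand of the gene, and capitals mark the match. None of these bases lies in an annotated exon. The starts are those of RefSeq. In GENCODE M21, Slfn5 starts further upstream, at 82951349, so its stretch lies inside the gene by that annotation.
Slfn5, chr11:82951922-82951981, plus strand, bases -180 to -121 from the start: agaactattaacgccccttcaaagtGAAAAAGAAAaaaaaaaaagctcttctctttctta
Slfn8, chr11:83020824-83020883, minus strand, bases -73 to -14 from the start: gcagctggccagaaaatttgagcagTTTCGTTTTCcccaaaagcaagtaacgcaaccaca
Slfn9, chr11:82991841-82991900, minus strand, bases -70 to -11 from the start: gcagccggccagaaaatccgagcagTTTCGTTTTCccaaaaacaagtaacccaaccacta
Slfn2, chr11:83065052-83065111, plus strand, bases -60 to -1 from the start: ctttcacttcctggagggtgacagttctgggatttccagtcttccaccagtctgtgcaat
A match is a description of letters and not a shown binding site. In Slfn8 and Slfn9 the match lies on the opposite strand.

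Of the short forms, Slfn2 (ENSMUSG00000072620) was the most abundant of the 7 members in both libraries. Slfn14, a Schlafen gene outside the list, had 304 UMIs in oil and 384 in tamoxifen. Slfn2, which keeps T cells quiescent and protects tRNA from cleavage, had 301 UMIs in oil, or 4.56 CPM (4.06 to 5.10), and 527 UMIs in tamoxifen, or 8.69 CPM (7.96 to 9.46). The intervals do not overlap, and the level was 1.91-fold higher in tamoxifen, a log2 ratio of 0.93 (0.72 to 1.14). Slfn1, the other short form, had 0 UMIs in oil, which allows up to 0.0454 CPM, and 1 UMI in tamoxifen.

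Of the long forms, Slfn5 (ENSMUSG00000054404), a nuclear family member, differed most between the libraries. It had 49 UMIs in oil, or 0.742 CPM (0.549 to 0.981), and 229 in tamoxifen, or 3.78 CPM (3.30 to 4.30). This was a 5.09-fold higher level, with a log2 ratio of 2.35 (1.90 to 2.82). Slfn8 (ENSMUSG00000035208) had 128 UMIs, or 1.94 CPM (1.62 to 2.30), in oil and 169 UMIs, or 2.79 CPM (2.38 to 3.24), in tamoxifen. Its log2 ratio of 0.52 (0.18 to 0.87) was smaller, though the intervals of the levels do not overlap. Slfn9 (ENSMUSG00000069793), its close paralog, had 106 UMIs in oil and 81 in tamoxifen, or 1.60 CPM (1.31 to 1.94) and 1.34 CPM (1.06 to 1.66). Its intervals overlap, with a log2 ratio of -0.27 (-0.70 to 0.17), and the ratio was 0.53 under the stricter cell filter described below.

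Of the intermediate forms, Slfn3 (ENSMUSG00000018986) had 73 UMIs in each library, or 1.11 CPM (0.866 to 1.39) in oil and 1.20 CPM (0.943 to 1.51) in tamoxifen. The log2 ratio was 0.12 (-0.37 to 0.61). Slfn4, which is known from myeloid cells, had 1 UMI in oil and 0 in tamoxifen, which allows up to 0.0495 CPM. Slfn1 and Slfn4 were thus at or under the limit of 3 counts and were given no ratio.

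**Figure D1:**
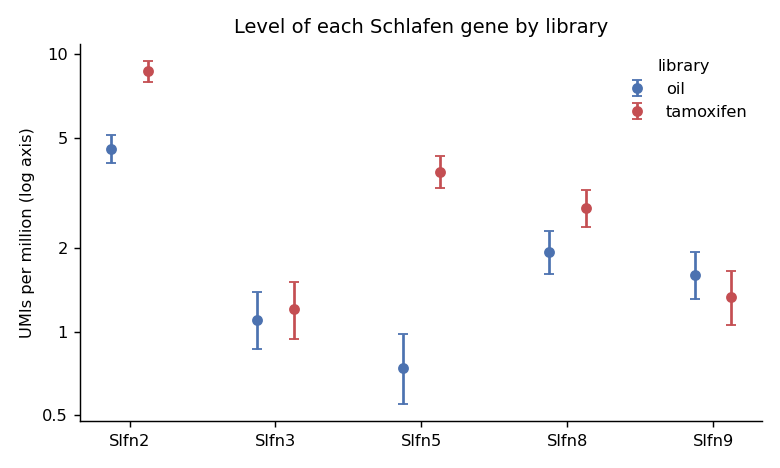
Level of the 5 measured members in each library, in CPM on a log axis. Points are library totals (1 library per group) and bars are 95% Poisson intervals. Among these members, Slfn2 stands highest in both libraries. Slfn5 moves from the lowest of them in oil (0.742 CPM) to the next after Slfn2 in tamoxifen (3.78 CPM).

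Of the 7 members, 5 had at least 100 UMIs over both libraries, the minimum for a ratio. Among them, 1 (Slfn5) was at least 2-fold higher in tamoxifen, against 0.475% of the 10527 genes measured, and 0 were at least 2-fold lower, against 0.142%. Among the 2536 genes with 100 to 1000 UMIs, 1.38% were at least 2-fold higher. The interval of the ratio lay above 0 for 3 members (Slfn2, Slfn5 and Slfn8), against 19.3% of all genes, and below 0 for none of the 5, against 39.8%. The median log2 ratio was 0.52 over the 5 members and -0.06 over all genes. By size of the ratio Slfn5 stood at rank 4 and Slfn2 at rank 64 of 10527.

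The order of the levels of the members also differed between the libraries. UMI counts come from transcript ends and were not scaled to gene length. In oil, Slfn2 made up 45.7% of the UMIs of the 7 members. It was followed by Slfn8, Slfn9, Slfn3 and Slfn5, and only Slfn2 was apart from its neighbour by its interval. In tamoxifen, the order was Slfn2, Slfn5, Slfn8, Slfn9 and Slfn3, and only the intervals of Slfn9 and Slfn3 overlapped. Slfn5 made up 7.45% of the Schlafen UMIs in oil and 21.2% in tamoxifen. Counts of Slfn8 and Slfn9 are uncertain to a degree, since 25.5% and 15.8% of the 50-base words in their last 500 transcript bases occur in another gene. Slfn3 shares 12.5% of its words with Slfn4, and Slfn2 and Slfn5 share none.

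Few cells held a Schlafen UMI, and most such cells held a single one. Slfn2 was found in 269 cells of oil (3.93%) and 417 of tamoxifen (6.44%), of which 25 and 75 cells held more than 1 UMI. Slfn5 was found in 40 cells (0.585%) and 180 cells (2.78%), with 4 and 34 cells above 1 UMI. Slfn8 was in 1.71% and 2.50% of cells, Slfn9 in 1.43% and 1.16%, and Slfn3 in 1.05% and 1.07%. When each cell was thinned to 3000 UMIs, the expected share of cells was 1.76% (1.44 to 2.11) and 2.87% (2.47 to 3.32) for Slfn2, and 0.271% (0.157 to 0.430) and 1.43% (1.15 to 1.77) for Slfn5. The order of the libraries was thus the same at equal depth for both genes. No other cell population was captured, so the share that free RNA alone would give was not measured.

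Cells with Slfn3 or Slfn9 held more UMIs of all genes than most. Their median was 13971 and 12758 UMIs per cell in oil and 12402 and 12216 in tamoxifen, compared with 8622.5 and 8209.5 over all cells. Cells with Slfn2 had medians of 8136 and 8194, and cells with Slfn8 had 6471 and 7216.5. At least 1 member was detected in 8.41% of cells in oil and 12.8% in tamoxifen, and at least 2 members in 22 and 70 cells.

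The relation to Isg15, an interferon-stimulated gene that encodes a ubiquitin-like modifier, separated the members. Cells were called Isg15-positive when they kept an Isg15 UMI after thinning to 3000 UMIs, and Schlafen levels were then read at full depth. This gave 682 positive cells of 6330 (10.8%) in oil and 1092 of 6127 (17.8%) in tamoxifen. In oil, Slfn5 was at 3.26 CPM in Isg15-positive cells and 0.463 CPM in Isg15-negative cells, a log2 ratio of 2.82 (1.94 to 3.69). In tamoxifen, the levels were 13.7 and 1.78 CPM, a log2 ratio of 2.94 (2.54 to 3.34). The Isg15-positive cells held 44.9% of the Slfn5 UMIs in oil and 60.3% in tamoxifen.

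Slfn2 followed Isg15 less closely in oil than in tamoxifen, as far as the counting intervals tell. Its log2 ratio of Isg15-positive over Isg15-negative cells was 0.59 (0.09 to 1.06) in oil and 1.55 (1.28 to 1.82) in tamoxifen. The values were 0.30 and 1.09 with classes at 5000 UMIs, and 0.11 and 1.45 among G1 cells alone. The Isg15-positive cells held 14.8% and 36.6% of its UMIs. For Slfn8 the ratios were 0.25 (-0.63 to 1.04) and 0.54 (-0.03 to 1.08), for Slfn9 they were -0.44 (-1.69 to 0.60) and 0.27 (-0.65 to 1.10), and for Slfn3 they were -0.89 (-2.80 to 0.54) and -0.13 (-1.21 to 0.81). All of these 6 intervals include 0. Under the stricter cell filter described below, with few UMIs, the values of Slfn3 became 1.20 and 1.21 and those of Slfn9 became 0.62 and -1.64, so no direction is read from them. The response element pattern was found for Slfn8 and Slfn9 and not for Slfn2, and its part in these relations was not tested. By the reverse reading given below, Isg15 was higher in Slfn8 cells than in the rest in both libraries. That reading was not taken within phases. Among G1 cells alone, the Slfn8 ratio of Isg15-positive over Isg15-negative cells was -0.29 in oil and 0.24 in tamoxifen.

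The levels of Slfn5 and Slfn2 in tamoxifen were higher with each class of Isg15 UMIs. These classes were not split by phase. Among G1 cells alone, the log2 ratio of Isg15-positive over Isg15-negative cells in tamoxifen was 2.58 for Slfn5 and 1.45 for Slfn2. In the 5035 cells with 0, 696 with 1, 162 with 2 and 234 with 3 or more Isg15 UMIs per 3000, Slfn5 was at 1.78, 5.92, 16.3 and 38.7 CPM. Slfn2 was at 6.39, 11.8, 22.0 and 40.2 CPM in these classes. The class with 3 or more held 3.82% of the cells, 32.6% of the Slfn5 UMIs and 15.0% of the Slfn2 UMIs. In oil, the highest class had 43 cells, with 6 UMIs of Slfn5 (16.0 CPM, 5.88 to 34.8) and 7 of Slfn2 (18.7 CPM, 7.51 to 38.5). Slfn8 had its highest level in tamoxifen in the class with 2 Isg15 UMIs (7.10 CPM, 3.40 to 13.1) and not in the top class (2.65 CPM, 0.860 to 6.18).

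**Figure D2:**
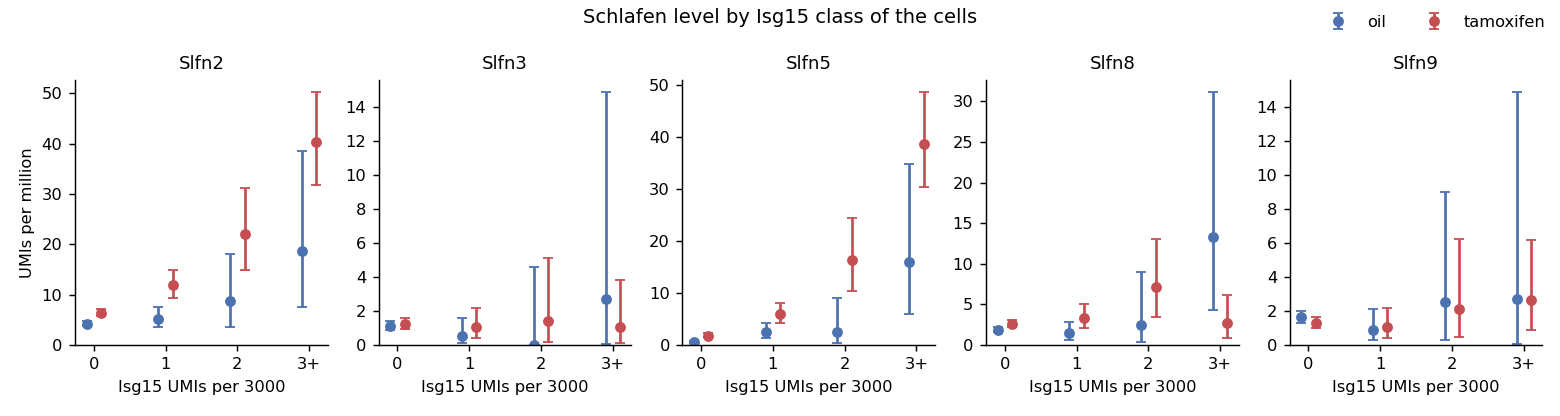
Level of each Schlafen gene, in CPM, by the number of Isg15 UMIs that a cell kept after thinning to 3000 UMIs, in the library labelled oil (blue) and the library labelled tamoxifen (red). Points are sums over the cells of a class and bars are 95% Poisson intervals. In tamoxifen Slfn5 goes from 1.78 to 38.7 CPM and Slfn2 from 6.39 to 40.2 CPM across the classes, and the axes differ between genes.

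The libraries also differed among cells of the same Isg15 class. In cells without an Isg15 UMI, the log2 ratio of tamoxifen over oil was 1.94 (1.31 to 2.62) for Slfn5, 0.60 (0.35 to 0.84) for Slfn2 and 0.46 (0.09 to 0.85) for Slfn8. It was 0.15 (-0.38 to 0.68) for Slfn3 and -0.36 (-0.84 to 0.12) for Slfn9. For Slfn5 the interval also lay above 0 in the other classes, with ratios of 1.23, 2.71 and 1.27. For Slfn8 the direction was not the same in every class. With 3 or more Isg15 UMIs it had 5 UMIs in each library and a ratio of -2.33 (-4.45 to -0.21). A cell without an Isg15 UMI at this depth may still express the gene. Read from the other side, Isg15 was at 440 CPM in the 40 Slfn5 cells of oil and 45.5 CPM in the rest, and at 690 and 99.2 CPM in tamoxifen. In Slfn2 cells it was at 86.5 and 280 CPM, against 46.2 and 102 CPM in the rest. In Slfn3 cells of oil it was lower, at 29.1 CPM against 48.1 CPM in the rest, a log2 ratio of -0.73 (-1.31 to -0.20). In tamoxifen it was at 92.3 against 114 CPM, a ratio of -0.30 (-0.64 to 0.02). In Slfn8 cells it was at 91.5 and 177 CPM, above the 47.1 and 112 CPM of the cells without Slfn8, with log2 ratios of 0.96 (0.65 to 1.25) and 0.66 (0.47 to 0.84). These intervals leave out the spread of Isg15 between cells, of which some held many UMIs.

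The members also differed by cell cycle phase, and in opposite directions. Phases were called from S and G2M genes on cells thinned to 3000 UMIs, which gave 2995 G1, 1625 S and 1710 G2M cells in oil and 3802, 1057 and 1268 in tamoxifen. A G1 call means a low score for both gene sets, and free RNA also enters such calls. Slfn2, Slfn5 and Slfn8 were highest in G1. Slfn2 was at 8.70 CPM in G1 and 2.87 CPM in S in oil, and at 13.5 and 3.99 CPM in tamoxifen. Slfn5 was at 1.75 and 0.239 CPM in oil, on 35 and 5 UMIs, and at 6.72 and 1.54 CPM in tamoxifen. Slfn8 was at 4.15 and 0.766 CPM in oil and at 4.82 and 0.771 CPM in tamoxifen. Isg15 was also higher in G1 than in S by CPM, at 66.8 and 37.3 CPM in oil and 154 and 67.9 CPM in tamoxifen. In UMIs per cell, its log2 ratio of S over G1 was 0.10 (-0.03 to 0.23) in oil and -0.30 (-0.41 to -0.20) in tamoxifen. The part of phase in the relations to Isg15 was not tested.

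Slfn3 and Slfn9 were highest in S. Slfn3 was at 0.30 CPM in G1, 2.15 CPM in S and 0.703 CPM in G2M in oil, and at 0.857, 2.38 and 0.793 CPM in tamoxifen. Its log2 ratio of S over G1 was 2.84 (1.61 to 4.36) in oil and 1.47 (0.68 to 2.29) in tamoxifen. Slfn9 was at 1.15, 2.82 and 0.827 CPM in oil and at 1.14, 2.24 and 0.793 CPM in tamoxifen, with ratios of 1.30 (0.58 to 2.06) and 0.97 (0.22 to 1.73). The long paralogs Slfn8 and Slfn9 thus had their highest levels in different phases. Among the 673 and 771 cells that pass a stricter filter (1000 genes or more, mitochondrial share up to 5%), the Slfn9 ratio of S over G1 was -0.15 in oil and 0.64 in tamoxifen. S cells hold more UMIs than G1 cells, which lowers a CPM for the same number of molecules. Counted per cell, the log2 ratios of S over G1 were 3.79 in oil and 2.35 in tamoxifen for Slfn3, 2.24 and 1.85 for Slfn9, -0.65 and -0.88 for Slfn2, and -1.93 and -1.25 for Slfn5, so these directions were the same on both scales.

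**Figure D3:**
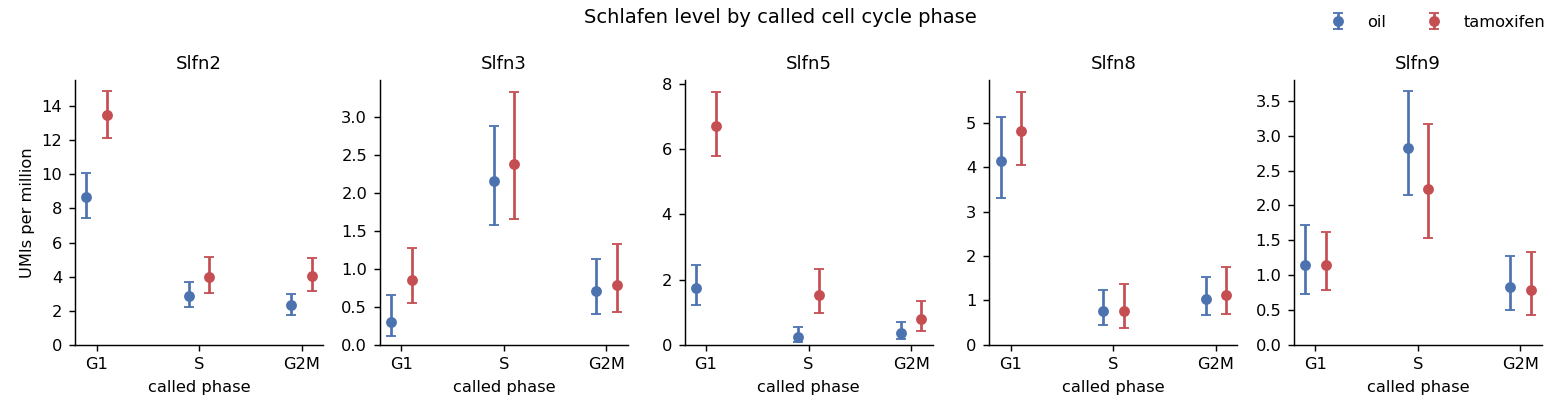
Level of each Schlafen gene, in CPM, in cells called G1, S or G2M, in the library labelled oil (blue) and the library labelled tamoxifen (red). Points are sums over the cells of a phase and bars are 95% Poisson intervals. Slfn2, Slfn5 and Slfn8 are highest in G1, Slfn3 and Slfn9 in S, and the axes differ between genes.

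G1 cells were more frequent in tamoxifen than in oil, so the ratios between libraries were also taken within phases. Slfn5 had a log2 ratio of 1.94 (1.41 to 2.51) in G1 and 2.69 (1.25 to 4.44) in S, and had 1.09 (-0.22 to 2.48) in G2M. For Slfn2 the ratio was 0.63 (0.37 to 0.90) in G1, 0.48 (-0.07 to 1.02) in S and 0.80 (0.27 to 1.33) in G2M. The ratio of Slfn8 was 0.22 (-0.19 to 0.63) in G1, 0.01 (-1.24 to 1.21) in S and 0.13 (-0.79 to 1.04) in G2M, so the higher level of Slfn8 over all cells was within counting error inside each phase. Slfn3 had 6 UMIs in G1 cells of oil and 24 in those of tamoxifen, a ratio of 1.52 (0.19 to 3.10), and 0.15 (-0.54 to 0.82) in S. Slfn9 was within counting error in all 3 phases.

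Levels were also read in clusters of cells. Genes with a ratio of 1.5-fold or more in either direction were kept out of the clustering. The 7 clusters with at least 5 Slfn2 UMIs in each library all had a higher level in tamoxifen, with log2 ratios from 0.16 to 1.67, and the interval lay above 0 in 4 of them. For Slfn5, 5 such clusters had ratios from 1.04 to 2.63, with 4 intervals above 0. At resolution 1.0, Slfn2 was higher in 9 of 10 such clusters, with ratios from -0.03 to 1.35 and 2 intervals above 0. Slfn5 was then higher in all 4, with 3 intervals above 0. At resolution 0.3, Slfn2 was higher in all 5 and Slfn5 in all 3, each with 3 intervals above 0. Among the clusters with at least 100 cells of each library, Slfn2 was highest in clusters 0, 3 and 4, in which 97.7%, 98.7% and 94.5% of cells were called G1. In cluster 4, which Hba-a2, Tac2 and Isg15 led, Slfn2 was at 6.63 CPM in oil and 16.3 CPM in tamoxifen, and Slfn5 at 2.41 and 8.48 CPM. In cluster 0, led by S100a6, Klf2 and Mcpt1, with the mast cell protease gene Mcpt4 also among its leading genes, Slfn5 was at 1.28 and 7.96 CPM.

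Among the same clusters, Slfn8 was highest in cluster 3, led by the mast cell genes Cpa3 and Fcer1a, with 9.03 CPM (6.14 to 12.8) in oil and 11.7 CPM (9.03 to 14.8) in tamoxifen. In cluster 0 it was at 5.25 CPM (3.83 to 7.02) in oil and 4.99 CPM (3.42 to 7.05) in tamoxifen. In cluster 4, which is also mostly G1, it was at 1.81 CPM (0.827 to 3.43) and 2.78 CPM (1.70 to 4.30). Slfn5, by contrast, was at 8.35 CPM in cluster 3 and 8.48 CPM in cluster 4 of tamoxifen. Slfn3 was at 2.11 and 1.81 CPM in cluster 1, led by the S phase genes Ung, Hells and Mcm4, which held 40 of its 73 UMIs in oil and 23 of 73 in tamoxifen. Clusters 6 and 7 came mostly from tamoxifen, with 9.28% and 6.59% of their cells from oil, and no ratio is read from them.

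**Figure D4:**
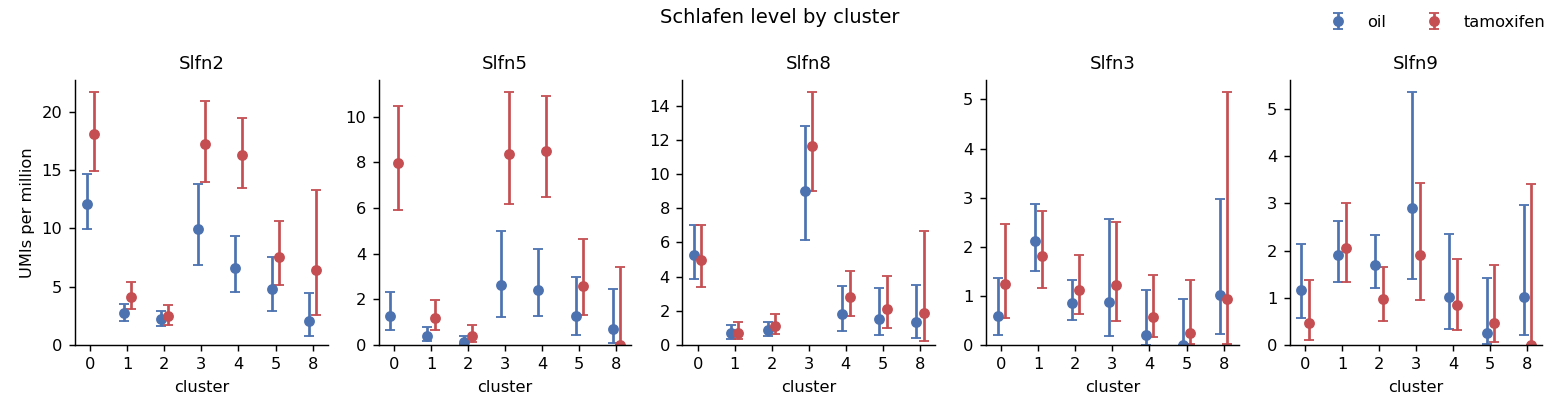
Level of each Schlafen gene, in CPM, in the clusters that hold at least 100 cells of each library, for the library labelled oil (blue) and the library labelled tamoxifen (red). Points are sums over the cells of a cluster and bars are 95% Poisson intervals. Slfn2 and Slfn5 are highest in clusters 0, 3 and 4, Slfn8 is highest in cluster 3 (9.03 and 11.7 CPM), and the axes differ between genes.

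In single cells, Slfn2 and Slfn5 were found together in 3 cells of oil and 31 of tamoxifen. In tamoxifen, 17.2% of the Slfn5 cells held Slfn2, compared with 6.44% of all cells, and 7.43% of the Slfn2 cells held Slfn5, compared with 2.78%. Slfn5 and Slfn8 were together in 4 and 14 cells, 10.0% and 7.78% of the Slfn5 cells, where 1.71% and 2.50% of all cells held Slfn8. Across cells, the genes most like Slfn2 among 8423 searched were Mcpt4, Tph1, Csf2rb2, Irf7 and Malat1, with a mean Pearson r over both libraries of 0.097 to 0.088. The values are weak and the cells of a library share their depth, so they are a description only. Slfn5, which was too sparse for that rule and was added after its values were seen, was most like Isg15 (0.17), Irf7 (0.16), Oas3 (0.14), Xaf1 (0.12) and Herc6 (0.11).

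None of the flanking genes reached the ratio of Slfn5 or Slfn2. The ratio of Slfn8, 0.52 (0.18 to 0.87), overlapped that of the flanking gene Slfn14 by its interval. Of the 10 nearest measured genes, 5 on each side of the members, 0 were at least 2-fold higher or lower, and the log2 ratios ran from -0.42 (Nle1) to 0.46 (Slfn14) with a median of -0.06. The interval lay above 0 for 1 and below 0 for 4 of them, and Slfn3 and Slfn9 fell within their range. Slfn14, a Schlafen gene of platelets and red cell precursors that is not among the 7 members, had 304 and 384 UMIs, or 4.60 and 6.33 CPM, a ratio of 0.46 (0.24 to 0.68). By phase, its ratio was -0.05 (-0.31 to 0.22) in G1, 0.48 (-0.18 to 1.14) in S and 0.73 (0.12 to 1.36) in G2M. Gm20234 was named after its values were seen. This noncoding transcript lies antisense to Slfn2, and the span of its gene overlaps that of Slfn2. It had 298 UMIs (4.51 CPM) in oil and 800 (13.2 CPM) in tamoxifen, a log2 ratio of 1.55 (1.35 to 1.74). Whether the counting used the strand is not given in the sources used here. Whether reads of Slfn2 transcripts, introns included, were counted for this gene was not tested.

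**Figure D5:**
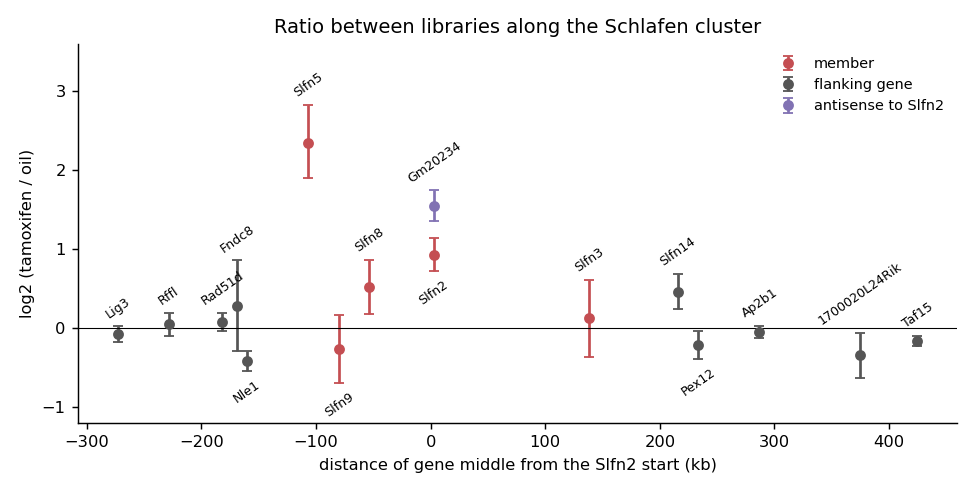
Log2 ratio of tamoxifen over oil for the members with a ratio (red), the 5 nearest measured genes on each side (grey) and Gm20234 (purple), against the distance of the gene's middle from the Slfn2 start in kb. Bars are 95% intervals for counting error. Slfn5 (2.35), Gm20234 (1.55) and Slfn2 (0.93) stand above the flanking genes, which run from -0.42 to 0.46.

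Beside the other interferon-stimulated genes, Slfn5 was among those with a large ratio. Of 63 listed genes, 61 were in the matrices and 48 had at least 100 UMIs. Of these, 9 were at least 2-fold higher in tamoxifen and 0 lower, and the interval lay above 0 for 42 and below 0 for 1, with a median log2 ratio of 0.51. The highest ratios were those of Ifit1 (3.17), Oasl2 (2.26) and Rtp4 (2.23), and the lowest those of Ifi27 (-0.07), Oas1a (-0.06) and Ifit2 (-0.04).

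Markers of other cells that the gate could hold were low except for mast cell and erythroid genes, though several lists were at levels like those of the Schlafen genes. All 5 natural killer cell markers were at 0. Summed levels were 5.77 and 5.65 CPM for 6 T cell markers, with Cd3g and Trac at 0, 0.212 and 0.181 CPM for 5 B cell markers, and 10.98 and 11.56 CPM for 6 monocyte and macrophage markers. Plasmacytoid dendritic cell markers were at 4.71 and 5.29 CPM, with Siglech and Klk1 at 0, and platelet markers at 7.03 and 9.69 CPM. The 6 neutrophil markers had 1 UMI in each library. The T cell markers were at 4.21 CPM in Slfn2 cells and 5.83 CPM in the other cells of oil, and at 8.24 and 5.48 CPM in tamoxifen. In Slfn5 cells they were at 10.3 CPM, against 5.74 CPM, in oil and at 12.96 CPM, against 5.47 CPM, in tamoxifen. Monocyte and macrophage markers were at 18.0 CPM in Slfn2 cells and 10.7 CPM in other cells of oil, and at 14.9 and 11.3 CPM in tamoxifen. Plasmacytoid dendritic cell markers were at 18.1 CPM in Slfn5 cells and 4.63 CPM in other cells of oil, and at 12.96 and 5.10 CPM in tamoxifen. For mast cell and erythroid markers, Slfn2 cells were above the other cells in both libraries, whereas Slfn5 cells were above them in oil and below them in tamoxifen. The 5 mast cell markers were at 1984 CPM in Slfn2 cells and 1131 CPM in other cells of oil, and at 1070 and 985 CPM in tamoxifen. In Slfn5 cells they were at 1678 CPM, against 1161 CPM, in oil and at 870.4 CPM, against 993 CPM, in tamoxifen. The 6 erythroid markers were at 8863 CPM in Slfn2 cells and 6027 CPM in other cells of oil, and at 11881 and 7481 CPM in tamoxifen. In Slfn5 cells they were at 14078 CPM, against 6093 CPM, in oil and at 6179.9 CPM, against 7792 CPM, in tamoxifen. The values for Slfn5 cells of oil rest on 40 cells, of which 4 held a T cell marker and 6 a plasmacytoid dendritic cell marker. No intervals were taken for these marker levels, so no difference between the libraries is read from them. The part of these markers in the Schlafen levels was not tested.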

How the data were processed

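The deposited values are raw UMI counts, made by the authors from Chromium 3′ V3 reads with Cell Ranger 3.0.2 on mm10. The submitters' notes also name Seurat. The members and gene lists were chosen with earlier results of these data known. Barcodes with 500 or more genes and a mitochondrial share of up to 10% were kept, and no doublets were removed. Counts were summed per library and divided by its total. Intervals are exact Poisson intervals for levels, conditional binomial intervals for ratios and Clopper-Pearson intervals for shares of cells, all at 95%. They cover counting error only, and a count of 0 allows up to 3 counts. Ratios were taken for genes with at least 100 UMIs over both libraries. For shares, Isg15 classes and phases, cells were thinned to 3000 UMIs, and shallower cells were left out. Clusters came from Seurat 5.3.0 on 2000 variable features and 20 principal components at resolution 0.5, without integration, and phases from its 43 S and 54 G2M genes.

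Named genes were the members, other genes with a Schlafen symbol, Isg15, Usp18, 5 flanking genes on each side, the 5 genes most like any member found in at least 5% of cells of a library, and the 3 highest and 3 lowest of the interferon list. Of the other Schlafen symbols, Slfnl1 had 3 and 5 UMIs and Slfn5os had 0 in both libraries. The ratio step was tested on simulated tamoxifen and oil counts of 10527 genes, of which 200 were changed 2-fold. The interval lay on the right side of 0 for 100% of these, and 95.4% of intervals held the simulated ratio. The simulated counts held counting error alone, as the intervals assume. Spread between cells or mice was not simulated, so this checks the computation only. Alternatives were other cell filters, TMM (edgeR 4.0.16) and median-ratio (DESeq2 1.42.0) scaling, a library total that leaves out mitochondrial and ribosomal protein genes, weighting cells equally, other count minimums, thinning depths and resolutions. Python 3.11.15, scipy 1.17.1 and R 4.3.3 were used.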

Additional observations from a re-analysis of the deposited data

Results flagged for a closer look

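The barcodes that the cell filter left out, 936 in oil and 839 in tamoxifen, enter no comparison of the report. Slfn5 had 4 UMIs in those of oil and 21 in those of tamoxifen, a log2 ratio of 2.33 (0.77 to 4.34), and was the single member whose interval lay above 0 there. Slfn2 had 24 and 33 UMIs, a ratio of 0.40 (-0.40 to 1.22).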

How the results depend on the processing

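No paired analysis was possible because a single library stands for each injection. For the same reason, leaving out a replicate gave no value. Of 132 values recomputed, 113 stayed within the interval of the reported value or, for counts of genes, within 1.5 times. With the other cell filters, scalings and weights, apart from the strict cell filter, the log2 ratio between libraries ran from 2.35 to 2.63 for Slfn5, 0.89 to 1.01 for Slfn2, 0.43 to 0.60 for Slfn8, 0.08 to 0.20 for Slfn3 and -0.26 to -0.16 for Slfn9.

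The strict filter (at least 1000 genes, at most 5% mitochondrial UMIs) left 673 and 771 cells and few UMIs. The ratio was then 3.18 for Slfn5, 1.33 for Slfn2 and 0.53 for Slfn9, and the log2 ratio of thinned cell shares was 4.26 for Slfn5 and 1.37 for Slfn2. The log2 ratio of Isg15-positive over Isg15-negative cells became 1.20 in oil and 1.21 in tamoxifen for Slfn3, 0.62 and -1.64 for Slfn9, and 3.48 for Slfn5 in tamoxifen. S over G1 became -2.51 for Slfn2 in tamoxifen and -0.15 for Slfn9 in oil. The sign turned for this last value and also for the Slfn9 ratio between libraries and the Isg15 relations of Slfn3 and Slfn9, whose reported intervals include 0. No value could be had under it for Isg15 and Slfn5 in oil, or for S over G1 of Slfn2 and Slfn5 in oil and Slfn8 in tamoxifen. With Isg15 classes at 5000 UMIs, the Slfn2 ratio in tamoxifen was 1.09. The sign of the Slfn9 ratio turned with these classes, to 0.35 in oil and -0.55 in tamoxifen. It also turned for Slfn3 in oil, to 0.17, with a second random draw of the thinning. A minimum of 20 UMIs gave 199 genes at least 2-fold higher and 99 lower, and a minimum of 500 gave 22 and 7, compared with 50 and 15. G1 cells alone, and both settings for S over G1, were chosen after seeing the data. In G1 cells the ratio between libraries was 0.63 for Slfn2 and 1.52 for Slfn3. The relation to Isg15 in G1 cells of oil was 0.43 for Slfn3 and -0.29 for Slfn8, each with the sign turned. The causes were not tested.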

Other observations

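Gm20234, antisense to Slfn2, differed between the libraries in cells of each Isg15 class up to 2 UMIs. The log2 ratio of tamoxifen over oil was 1.52 (1.30 to 1.73) in cells without an Isg15 UMI, 1.40 (0.81 to 2.02) with 1 and 1.60 (0.33 to 3.15) with 2. Its ratio of Isg15-positive over Isg15-negative cells was 0.46 (-0.06 to 0.94) in oil, where that of Slfn2 was 0.59 (0.09 to 1.06), and 0.39 (0.13 to 0.64) in tamoxifen, where that of Slfn2 was 1.55 (1.28 to 1.82). By phase, the ratio between libraries was 1.22 (0.97 to 1.48) in G1, 0.97 (0.55 to 1.39) in S and 2.04 (1.497 to 2.61) in G2M. Gm20234 and Slfn2 were found together in 18 cells of oil and 51 of tamoxifen. In oil, 6.69% of the Slfn2 cells held Gm20234, compared with 4.09% of all cells, and in tamoxifen 12.2%, compared with 10.6%.

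Slfn14 showed a relation to Isg15 of similar size in both libraries, with log2 ratios of Isg15-positive over Isg15-negative cells of 1.01 (0.56 to 1.44) in oil and 1.09 (0.76 to 1.42) in tamoxifen.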
